A study of Sus scrofa with 20 samples.

Results

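The interferon response genes XAF1, IFI44L, UBD and B2M were followed in pig heart across 3 protocols of repeated or brief ischemia and a sham operation. They were chosen by symbol, as every probe set of the porcine Affymetrix array whose annotation names one of these genes. This gave 14 probe sets of 23999 tested, with 1 for XAF1, 3 for IFI44L, 1 for UBD and 9 for B2M, and 4 genes of 6765. The genes were selected on results of these same arrays, and the comparison that selected them is not recorded. Their levels and differences are therefore given as a description, with no test. Probe sets of a gene with several are lettered by mean signal from the brightest, as IFI44L-A to IFI44L-C and B2M-A to B2M-I.

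Total RNA from the heart of 20 female pigs was measured on 20 arrays, 5 in each of 4 groups. In SWOP animals, which model the late window of protection after a brief stimulus, 2 coronary occlusions of 10 min were each followed by 10 min of reperfusion, and tissue was taken after 24 h of reperfusion. RCO animals received this stimulus in 6 sessions spaced 12 h apart. The sample labels describe the RCO stimulus as 6 episodes of 10 min, without the second occlusion of each session. RCS animals went through 90 min of low-flow ischemia caused by coronary stenosis, also 6 times and 12 h apart. Control animals were sham-operated. The sources used here do not give strain, age, the heart region sampled or, for RCO and RCS, how long after the final session tissue was taken.

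Interferons are secreted proteins that bind receptors on the cell surface, where Janus kinases phosphorylate STAT transcription factors. Type I interferons and the type II interferon IFN-gamma use different receptors, and the transcription factors downstream of them switch on many genes. In the heart such genes are expressed by muscle cells, vessel cells and resident or recruited leukocytes. XAF1 binds the caspase inhibitor XIAP and opposes it. IFI44L is a cytoplasmic protein induced mainly by type I interferon, with a gene next to IFI44 in RefSeq. UBD encodes FAT10, a ubiquitin-like modifier that marks proteins for the proteasome and responds to IFN-gamma and TNF. B2M is the light chain of class I major histocompatibility (MHC) molecules, which show peptides to T cells.

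Array medians lay between 6.75 and 6.82 on the log2 scale, and the number of arrays limits the precision, with a median standard error of 0.111 for RCS minus control. Cardiomyocyte markers gave some of the strongest signals of the array, with 7 of 8 measured and all 7 at or above the 97.2nd percentile of mean signal. Libraries of some animals stood apart from their group. RCO replicates 2 and 3 scored 44.0 and 29.4 on the first principal component, within the range of RCS (26.4 to 64.3), and their difference between 3′ and 5′ actin probe sets was 0.68 and 0.75, against 1.05 to 1.31 in the other RCO arrays. This difference was 1.21 to 1.35 in SWOP, 0.51 to 0.70 in RCS and 1.11 to 1.63 in control. For GAPDH probe sets the groups overlapped, at 0.06 to 0.14 in SWOP and −0.02 to 0.11 in RCO. The GAPDH difference was −0.02 to 0.17 in RCS and 0.06 to 0.08 in control. For XAF1, IFI44L and UBD, RCS replicate 1 and control replicate 5 were the highest arrays of their groups. In bulk tissue, fewer cells of a type and less RNA per cell cannot be told apart.

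XAF1 was highest in RCO and lowest in RCS. The XAF1 signal was 7.92, 7.45, 7.79, 7.54 and 7.29 in SWOP replicates 1 to 5, and 8.34, 8.04, 8.18, 8.19 and 8.28 in RCO. It was 7.90, 6.40, 7.57, 6.86 and 6.62 in RCS, and 7.77, 7.36, 7.26, 7.57 and 8.35 in control. All 5 RCO arrays lay above all 5 RCS and all 5 SWOP arrays, while control replicate 5 overlapped RCO, and RCS replicates 1 and 3 lay within the ranges of SWOP and control. XAF1 averaged 7.07 ± 0.64 in RCS and 8.21 ± 0.11 in RCO (SD, n = 5 each), a log2 difference of −1.14 ± 0.24 (SE) or 2.20-fold lower in RCS. Against control, the XAF1 difference was 0.54 ± 0.24 in RCO, −0.59 ± 0.24 in RCS and −0.06 ± 0.24 in SWOP. Without control replicate 5 and RCS replicate 1, the differences of XAF1 from control were 0.72 in RCO and −0.63 in RCS. Without RCO replicates 2 and 3, the XAF1 difference of RCS minus RCO was −1.20 ± 0.28.

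IFI44L had the same order of groups on both of its brighter probe sets, with RCO highest and RCS lowest. IFI44L-A was 10.50, 10.15, 10.58, 10.23 and 9.96 in SWOP and 10.68, 11.01, 11.18, 10.98 and 10.86 in RCO. It was 10.66, 9.73, 10.18, 10.05 and 9.81 in RCS, and 10.17, 10.43, 9.92, 10.49 and 11.45 in control. Every RCO array exceeded every RCS and SWOP array, and the single highest value of all 20 belonged to control replicate 5. The IFI44L difference of RCS minus RCO was −0.86 ± 0.22 (SE), and that of RCO minus SWOP was 0.66 ± 0.22. Against control, IFI44L differed by 0.45 ± 0.22 in RCO, −0.41 ± 0.22 in RCS and −0.21 ± 0.22 in SWOP. Without control replicate 5 and RCS replicate 1 these IFI44L differences were 0.69, −0.31 and 0.03, so the difference between SWOP and control changed sign. Without RCO replicates 2 and 3, RCS minus RCO was −0.75 ± 0.26 for IFI44L-A.

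IFI44L-B gave 8.72, 8.39, 8.99, 8.70 and 8.37 in SWOP, 8.79, 9.57, 9.64, 9.38 and 9.18 in RCO, 8.94, 8.18, 8.50, 8.48 and 8.33 in RCS, and 8.82, 8.82, 8.54, 8.84 and 9.95 in control. Here RCO replicate 1 overlapped RCS replicate 1, and the IFI44L difference of RCS minus RCO was −0.83 ± 0.22 (SE). IFI44L-C was dim, with signals of 4.09 to 5.60 over all arrays. It was the only one of the 14 below the 30th percentile of signal, and its groups overlapped in all 6 comparisons.

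UBD showed the widest spread between groups. Its signal was 10.73, 10.10, 10.25, 10.19 and 9.85 in SWOP and 11.36, 10.25, 10.72, 11.01 and 10.91 in RCO. It was 10.52, 8.28, 8.24, 9.51 and 8.57 in RCS, and 9.40, 9.92, 9.71, 8.86 and 10.21 in control. The 5 RCO arrays lay above the 5 control arrays without overlap, and 4 of 5 RCS arrays lay below every RCO and SWOP array, RCS replicate 1 being the exception. UBD averaged 9.02 ± 0.98 in RCS and 10.85 ± 0.41 in RCO (SD, n = 5 each), a log2 difference of −1.83 ± 0.35 (SE) or 3.55-fold lower in RCS. Against control, UBD differed by 0.60 ± 0.35 in SWOP, 1.23 ± 0.35 in RCO and −0.60 ± 0.35 in RCS. Without control replicate 5 and RCS replicate 1, the UBD difference was −2.20 for RCS minus RCO and −0.82 for RCS minus control. Without RCO replicates 2 and 3, RCS minus RCO was −2.07 ± 0.40 for UBD.

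**Figure D1:**
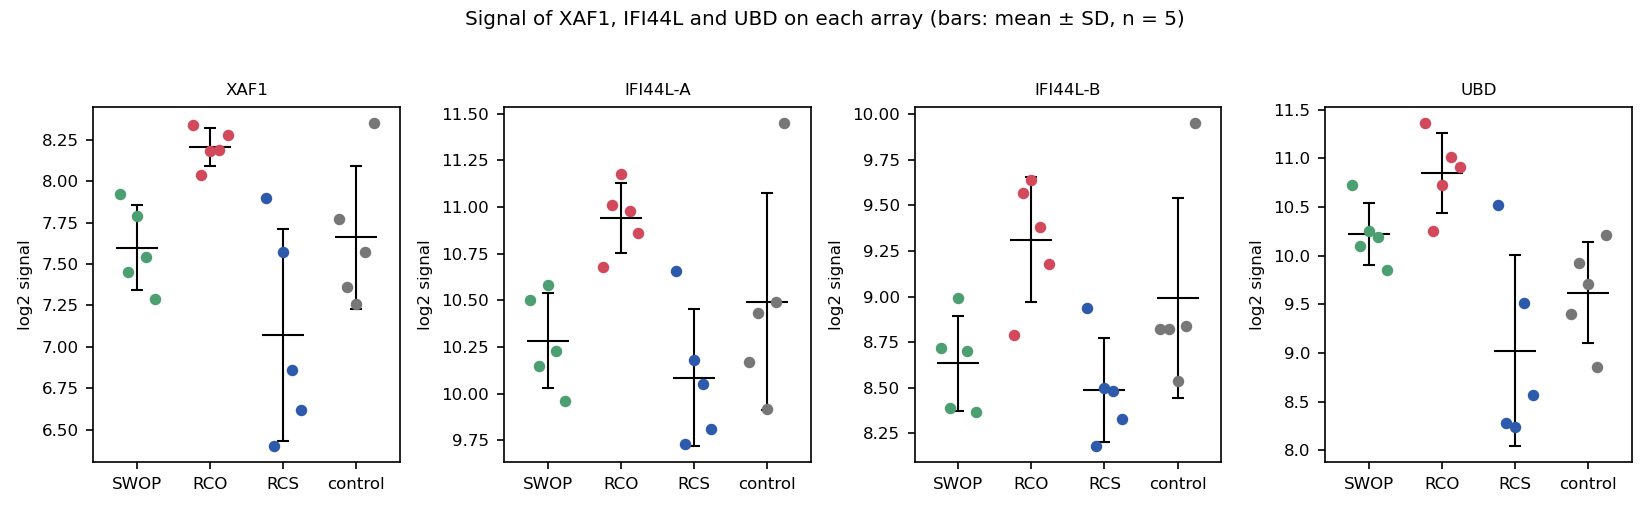
Log2 signal (y axis) of XAF1, of the 2 brighter IFI44L probe sets and of UBD on each of the 20 arrays, by group (x axis). Points are arrays in order of replicate number, and black bars give the mean ± SD (n = 5). RCO holds the highest group mean in each panel and RCS the lowest, and RCS replicate 1 and control replicate 5 stand above the rest of their groups.

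For these 3 genes the order of group means was close. XAF1 and both brighter IFI44L probe sets ran RCO, control, SWOP and RCS from high to low, and UBD ran RCO, SWOP, control and RCS. In each of these orders the ranges of neighbouring groups overlapped, so that only groups further apart were separated. UBD was above control in SWOP on average, where XAF1 and IFI44L were not.

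B2M did not give one pattern, because its 9 annotated probe sets disagreed. Of the 9, B2M-B and B2M-E behaved alike. B2M-E was 12.41, 12.18, 12.36, 12.19 and 11.75 in SWOP, 12.78, 12.88, 12.48, 12.88 and 12.64 in RCO, 12.33, 12.04, 12.21, 12.26 and 12.05 in RCS, and 11.82, 11.99, 11.99, 11.87 and 12.53 in control. All RCO arrays lay above all RCS and all SWOP arrays, and control replicate 5 alone reached into the RCO range. The B2M difference on this probe set was 0.69 ± 0.13 (SE) for RCO minus control, −0.55 ± 0.13 for RCS minus RCO and 0.14 ± 0.13 for RCS minus control.

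B2M-B was 13.75, 13.78, 13.79, 13.72 and 13.57 in SWOP, 13.93, 14.19, 13.96, 14.06 and 13.93 in RCO, 13.87, 13.68, 13.79, 13.87 and 13.67 in RCS, and 13.58, 13.68, 13.66, 13.62 and 13.93 in control. RCO was again highest, without overlap with RCS or SWOP and touching control at replicate 5. The B2M difference was 0.32 ± 0.08 (SE) for RCO minus control and −0.24 ± 0.08 for RCS minus RCO.

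The other 7 probe sets annotated to B2M gave other orders. B2M-A, the brightest of the 9, was lowest in SWOP, at −0.49 ± 0.14 (SE) against control and without overlap, and differed from control by −0.17 ± 0.14 in RCO and −0.28 ± 0.14 in RCS. B2M-C was above control without overlap in both RCO (0.32 ± 0.09) and RCS (0.43 ± 0.09), and B2M-H was highest in RCS, at 0.76 ± 0.14 against control without overlap. B2M-G and B2M-I were below control in RCS, by −0.37 ± 0.12 and −0.32 ± 0.11, without overlap. The ranges of RCO, RCS and control overlapped on both B2M-D (RCS minus RCO −0.69 ± 0.25) and B2M-F (RCS minus RCO −0.07 ± 0.14). RefSeq lists B2M under 2 gene identifiers on chromosome 1, separated by 1 locus, but the array annotation assigns all 9 probe sets to the same transcript. As the 9 disagreed, a statement on B2M as a gene depends on the probe set.

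**Figure D2:**
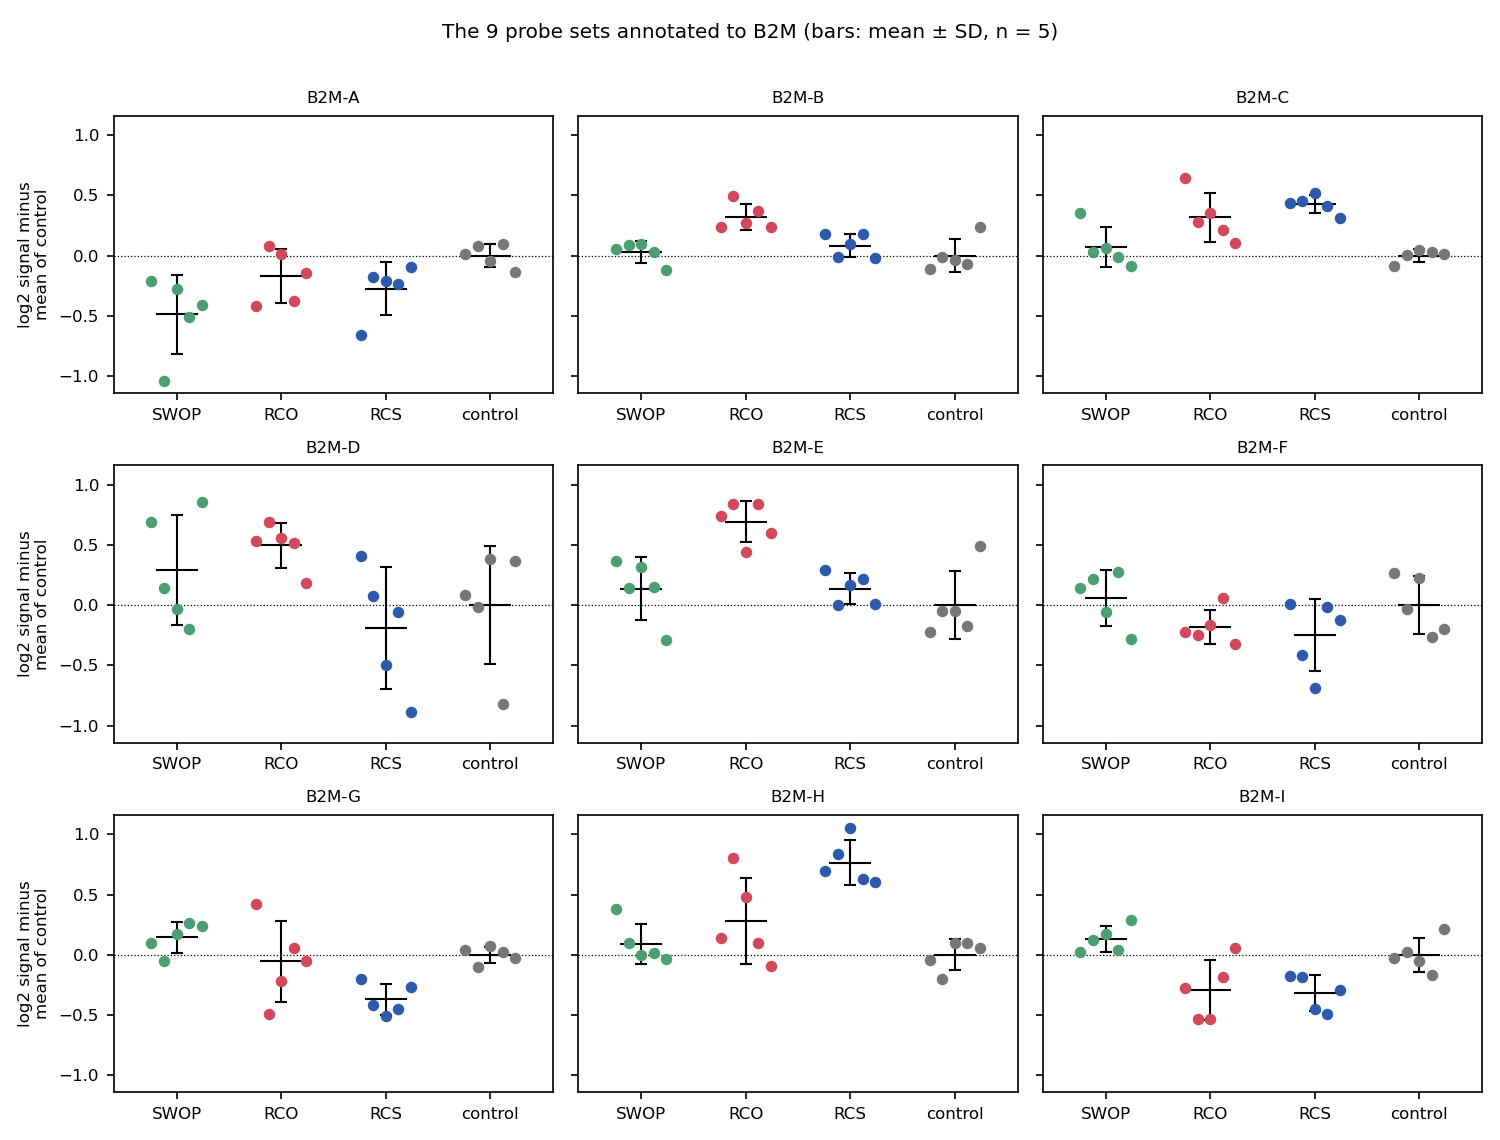
The 9 probe sets annotated to B2M, as log2 signal on each array minus the mean of the 5 control arrays (y axis), by group (x axis). Points are arrays and black bars the mean ± SD (n = 5). RCO has the highest mean on B2M-B, B2M-E and B2M-D, RCS on B2M-H and B2M-C, and SWOP lowest on B2M-A.

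With the deviations of each array from its group mean, the members fell into those that varied with one another and those that did not. Over the 20 arrays, Pearson's r was 0.94 between the 2 brighter IFI44L probe sets and 0.87 between B2M-B and B2M-E. XAF1 correlated with IFI44L at 0.79 and 0.66 on those probe sets, and UBD with XAF1 at 0.56 and with IFI44L at 0.48 and 0.36. Against the mean of 23 other interferon stimulated effectors, r was 0.75 for XAF1, 0.86 and 0.85 for IFI44L, 0.41 for UBD, and 0.56 and 0.46 for B2M-B and B2M-E. The other 7 probe sets of B2M had r between −0.19 and 0.24 with that mean. These arrays share their animals and their hybridizations, and the values describe them.

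The 5 genes most like each member were taken by the same correlation. For XAF1 they were PARP9 (0.83), an ADP-ribosyltransferase family member, RSAD2 (0.81), the antiviral radical enzyme viperin, IFIT3 (0.81), an RNA-binding antiviral protein, ZBP1 (0.80), a sensor of Z-form nucleic acid, and IFI44L itself (0.79). For IFI44L they were PARP9 (0.89), IFIT3 (0.88), ISG12(A) (0.87), ISG15 (0.85), a ubiquitin-like modifier, and DDX58 (0.82), the RNA sensor RIG-I. For UBD they were BOLA1 (0.78), SLC22A5 (0.77), POLR2J (0.76), GTPBP10 (0.75) and GATC (0.74), none of them on the interferon lists. For B2M-A they were RAB3IL1, AAAS, ECE1, PAICS and PRRC2C (0.75 to 0.79). For B2M-B, chosen after its values were seen, ISG12(A) at 0.82 and the class I gene SLA-8 at 0.80 were among the 5, whereas B2M-C was nearest to the ribosomal protein gene RPL36AL (0.94) and B2M-D to OAZ1 (0.94).

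A call below means an adjusted p below 0.05, from limma with Benjamini-Hochberg adjustment over all 23999 probe sets within a comparison. Of the 14 member probe sets, 1 was called in SWOP minus control (7.15% of all probe sets), 4 in RCO minus control (10.7%), 5 in RCS minus control (47.5%), 3 in RCO minus SWOP (10.1%), 5 in RCS minus SWOP (29.1%) and 7 in RCS minus RCO (19.1%). Since these comparisons may have chosen the genes, nothing is read from those counts.

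The other effectors of the interferon response, which are genes induced by the pathway, were in part lower in RCS than in RCO. Of 57 listed effectors 23 were measured, and 8 were lower and 0 higher in RCS than in RCO, against 9.90% lower and 11.7% higher over all 6765 genes. The median difference of the 23 was −0.57, against −0.006 over all genes, and 18 of 23 had a difference below 0. CXCL9, a chemokine that attracts activated T cells, was 9.27, 8.12, 7.45, 8.27 and 7.33 in RCS, against 10.27, 8.97, 9.20, 10.01 and 8.66 in RCO (difference −1.33 ± 0.43, limma adjusted p = 0.037). RSAD2 was 8.90, 7.18, 7.81, 7.27 and 6.27 in RCS, against 8.26, 8.59, 8.90, 8.62 and 9.09 in RCO (−1.21 ± 0.36, limma adjusted p = 0.025). In both genes the groups overlapped through RCS replicate 1.

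The guanylate-binding proteins GBP1 and GBP2, GTPases induced by IFN-gamma, were also lower in RCS. GBP2 was 7.77, 6.61, 6.84, 7.03 and 6.94 in RCS, against 8.60, 7.69, 8.05, 7.90 and 8.94 in RCO (−1.20 ± 0.24, limma adjusted p = 0.0041), and GBP1 differed by −0.98 ± 0.28 (limma adjusted p = 0.022). The other 4 were IFIT1 (−0.77), NT5C3A (−0.64), PARP9 (−0.62) and ISG20 (−0.57), with limma adjusted p between 0.017 and 0.044. ISG15 (−0.91, limma adjusted p = 0.060), MX1 (−0.68, 0.17) and IFIT3 (−0.75, 0.067) did not pass, and LAP3 (0.06) was nearly level. CXCL9, RSAD2, PARP9, ISG20, IFIT1, NT5C3A, MX1 and IFIT3 were named after their values were seen.

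The count of 8 rested in part on single arrays and on the pooled spread. It was 12 without RCS replicate 1, 11 without RCO replicate 1 (with 1 effector higher) or without control replicate 5, and 13 without control replicate 5 and RCS replicate 1 together. It was 5 without RCO replicate 4 or 5 or without RCS replicate 2, 3 or 5, 4 without RCS replicate 4, and 1 when only RCS and RCO arrays were fitted.

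**Figure D3:**
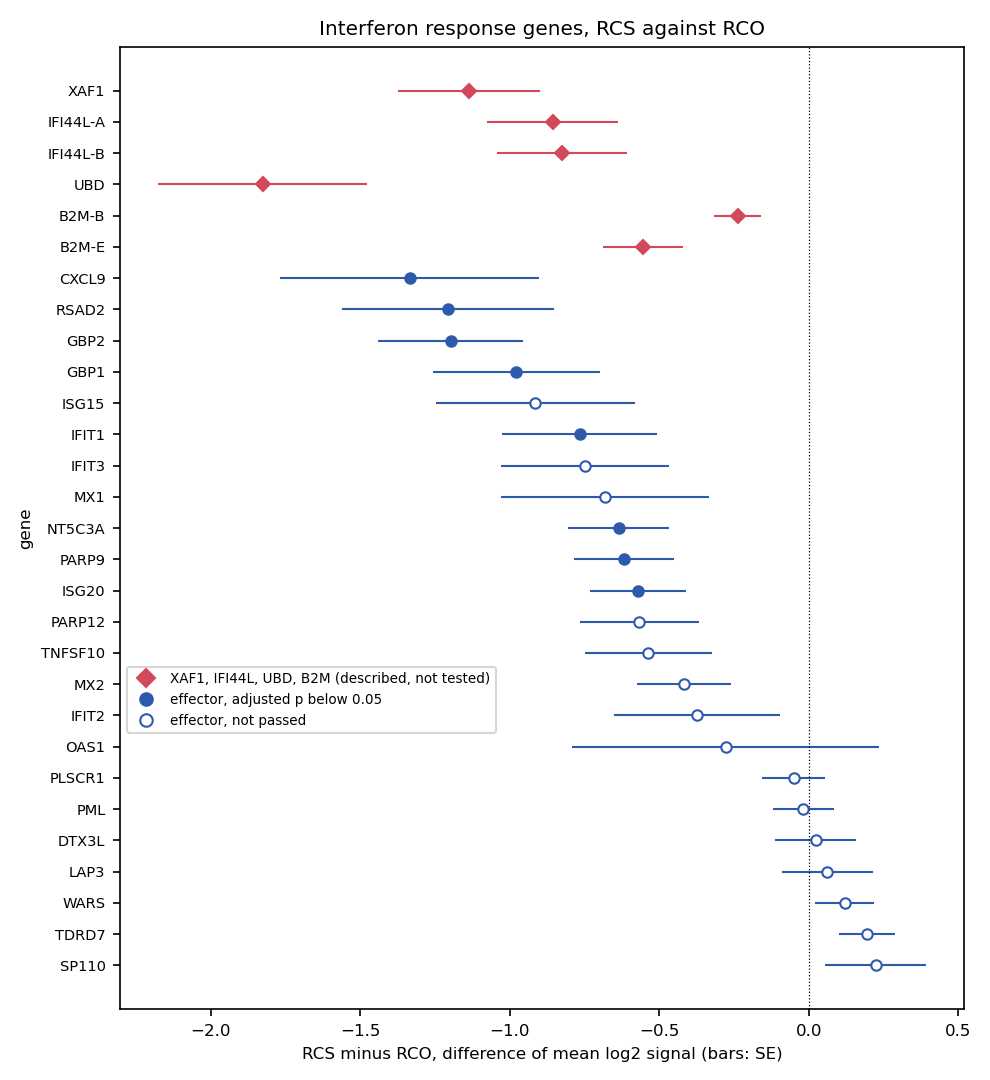
Differences of mean log2 signal, RCS minus RCO (x axis, bars SE), for XAF1, IFI44L, UBD and B2M-B and B2M-E (diamonds) and for 23 other effectors (circles, filled where the adjusted p was below 0.05). Of the 23 effectors, 18 lie left of 0 and 8 are filled, all of them on that side.

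Against control, fewer effectors passed. In RCO minus control 3 of 23 were higher and 0 lower (11.3% and 4.26% of all genes), with a list median of 0.26 against 0.01 over all genes. These were GBP1 (10.12 ± 0.54 in RCO and 8.83 ± 0.67 in control, SD, n = 5 each; 1.29 ± 0.28, limma adjusted p = 0.0069), GBP2 (0.87 ± 0.24, 0.027) and CXCL9 (1.41 ± 0.43, 0.043). Leaving out control replicate 1, 2 or 3 gave 1, leaving out RCO replicate 1 gave 5, leaving out control replicate 5 gave 6, and a fit of RCO and control alone gave 0. In RCS minus control 2 were higher and 3 lower (28.8% and 25.7% of all genes), with a median of −0.08 against −0.004. This count of 5 was 3 without control replicate 1 or without RCS replicate 3, 4 or 5. The higher ones were WARS (0.39 ± 0.10), a tryptophanyl-tRNA synthetase, and TDRD7 (0.24 ± 0.09). The lower ones were RSAD2 (−1.01 ± 0.36), the death ligand TNFSF10 (−0.71 ± 0.21) and NT5C3A (−0.51 ± 0.17).

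The brief stimulus of SWOP gave no effector that passed. Of the 23, 0 passed with limma in SWOP minus control (4.66% of all genes higher and 3.50% lower), while 3 had an unadjusted p below 0.05, 2 of them higher and 1 lower, with a median of −0.04 against 0.04 over all genes. In RCO minus SWOP 1 of 23 was higher and 0 lower (5.54% and 6.40% of all genes), with a median of 0.31, and 22 of 23 differences were above 0. That count was 6 without RCO replicate 1, 2 without control replicate 5 and 0 without any one of 14 other arrays. In RCS minus SWOP 2 were higher and 3 lower (20.3% and 17.7% of all genes), with a median of −0.09, and the count of 5 was 1 without RCS replicate 3 or SWOP replicate 1.

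Array by array, the mean of the 23 effectors set against the control mean was 0.04, −0.09, 0.06, 0.15 and −0.10 in SWOP, 0.01, 0.36, 0.61, 0.42 and 0.50 in RCO, 0.44, −0.25, −0.03, −0.25 and −0.45 in RCS, and −0.10, −0.24, −0.22, 0.00 and 0.56 in control. RCS replicate 1 was the highest RCS array for 17 of the 23 genes and control replicate 5 the highest control for 16, while RCO replicate 1 was the lowest RCO array for 15. RCS replicate 1 and control replicate 5 were also the highest of their groups for XAF1 and IFI44L, while RCO replicate 1 was the lowest RCO array for IFI44L-A and IFI44L-B and the highest for XAF1.

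**Figure D4:**
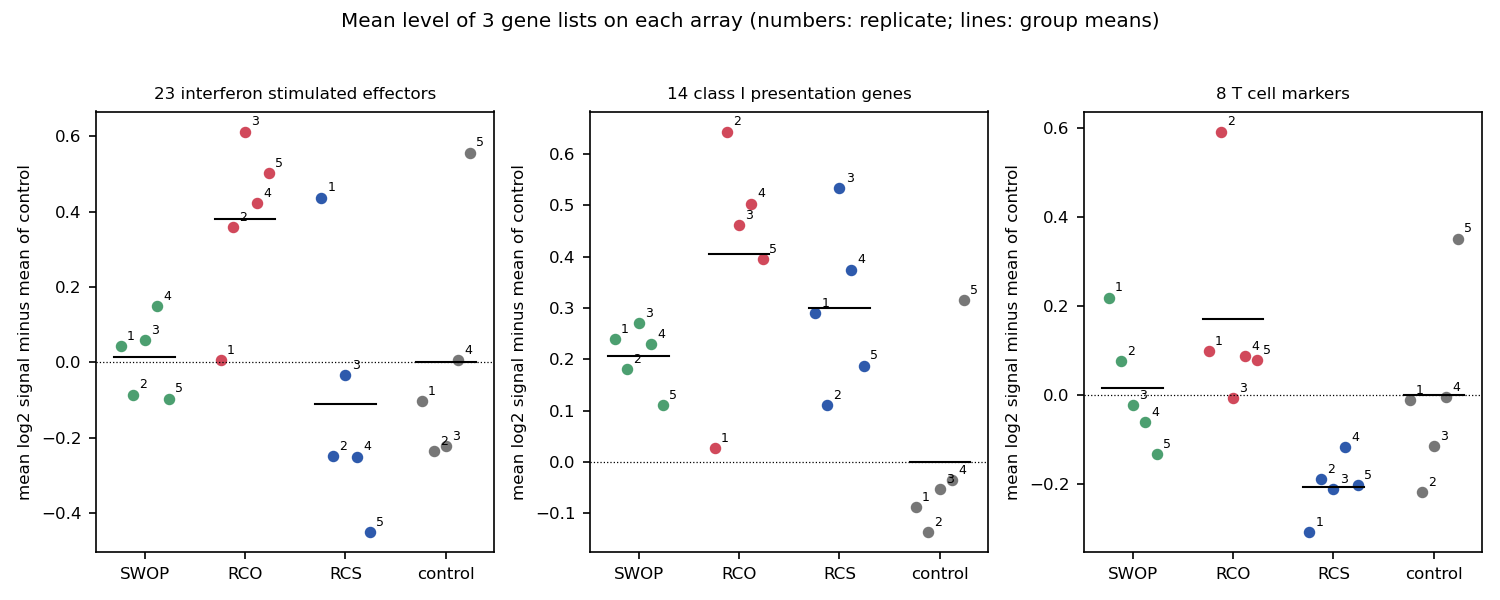
Mean log2 signal of 23 interferon stimulated effectors, 14 class I presentation genes and 8 T cell markers on each array, minus the mean of the control arrays (y axis), by group (x axis). Numbers beside points are replicate numbers and lines are group means. In the effector panel RCO replicates 2 to 5 lie between 0.36 and 0.61, while RCS replicate 1 (0.44) and control replicate 5 (0.56) lie among them.

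Upstream of these genes, the ligands were dim. IFNA1, IFNB1 and IFNG were measured of 9 listed, at the 9th to 46th percentile of signal, and all 3 were lower in RCS than in control (IFNA1 −0.40 ± 0.08, limma adjusted p = 0.00061; IFNB1 −0.35; IFNG −0.24), against 25.7% of all genes. That count was 1 without RCS replicate 3, and 1 without control replicate 5 and RCS replicate 1. It was also 1 with quantile normalization, and 1 with dim probe sets left out, which removes IFNB1 and IFNG. IFNA1 was also lower in SWOP than in control (−0.30 ± 0.08, limma adjusted p = 0.034). With limma 0 passed in RCO minus control (1 lower at an unadjusted p below 0.05) and 0 in RCS minus RCO (0 at an unadjusted p below 0.05).

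The receptors ran the other way. All 4 measured receptor chains were higher in RCS than in control, IFNAR2 by 0.80 ± 0.12 (limma adjusted p = 4.9e-05), IFNAR1 by 0.72 ± 0.16, IL10RB by 0.68 ± 0.20 and IFNGR1 by 0.56 ± 0.14, against 28.8% of all genes. IFNAR2 was 9.14, 9.35, 9.79, 9.36 and 9.47 in RCS, against 8.67, 8.76, 8.49, 8.73 and 8.48 in control, without overlap. With limma 0 of the 4 passed in RCO minus control (1 higher at an unadjusted p below 0.05). In RCS minus RCO 1 passed as higher, IFNAR2 (0.58 ± 0.12), against 11.7% of all genes. That count was 3 without RCO replicate 2, 2 without RCO replicate 3 or SWOP replicate 1, 4 without RCO replicates 2 and 3, and 0 with RCS and RCO alone.

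Of 16 signalling and transcription factor genes, 2 were higher and 0 lower in RCO minus control (11.3% and 4.26% of all genes), a share of higher genes near that of all genes. The 2 were IFI35 (0.77 ± 0.13, limma adjusted p = 0.0018) and IRF3 (0.34 ± 0.08). Leaving out RCO replicate 1 gave 6, leaving out RCO replicate 5 gave 4, and both leaving out RCO replicates 2 and 3 and fitting RCO and control alone gave 1. In RCS minus control 5 were higher and 2 lower (28.8% and 25.7% of all genes), a share of higher genes near that of all genes. The higher ones were the myeloid factor IRF8 (1.11 ± 0.23), STAT3 (0.90 ± 0.17), JAK2 (0.59), IRF2 (0.51) and IFI35 (0.43), and the lower ones were SOCS1 (−0.47 ± 0.09), a feedback inhibitor of Janus kinases, and PIAS1 (−0.36). In RCS minus RCO 2 were higher and 3 lower (11.7% and 9.90% of all genes), the share of higher genes being near that of all genes. The higher ones were STAT3 (0.58) and IRF2 (0.49). The lower ones were USP18 (−0.77), which removes ISG15, IRF7 (−0.30), which amplifies type I interferon, and SOCS1 (−0.28). The last count of 5 was 2 without RCO replicate 4 or 5 or RCS replicate 4 or 5, 3 without RCS replicate 2, 1 without RCS replicate 3, and 0 with RCS and RCO alone. JAK1 and TYK2 passed in neither comparison with control.

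Among 7 nucleic acid sensors, 0 were higher and 1 lower in RCO minus control (11.3% and 4.26% of all genes), MAVS (−0.95 ± 0.21), the mitochondrial adaptor of RNA sensing. That count of 1 was 0 without RCO replicates 2 and 3 and 0 with RCO and control alone. It was 2 without RCO replicate 1 or 4 or control replicate 5. In RCS minus control 2 were higher, TBK1 (0.42) and TLR9 (0.41), and 2 lower, MAVS (−1.03 ± 0.21) and ZBP1 (−0.63 ± 0.17), in each direction near the share of all genes (28.8% and 25.7%). ZBP1, one of the genes most like XAF1, was also lower in RCS than in RCO (−0.71 ± 0.17, limma adjusted p = 0.0097), and TBK1 was higher (0.30), against 9.90% and 11.7% of all genes. That count of 2 was 1, a lower sensor, without RCO replicate 4 or 5 or RCS replicate 3. It was also 1 with RCS and RCO alone.

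Class I antigen presentation, the process that B2M serves, was in part higher in RCO. Of 14 genes measured besides B2M, 6 were higher and 0 lower in RCO minus control (11.3% and 4.26% of all genes), with a median of 0.47. The immunoproteasome subunit PSMB8 was 9.22, 9.50, 9.38, 9.62 and 9.43 in RCO, against 8.19, 8.58, 7.99, 7.90 and 8.84 in control, without overlap (1.13 ± 0.17, limma adjusted p = 0.00076). The proteasome activators PSME2 (0.85) and PSME1 (0.69), the subunit PSMB10 (0.79), the class I heavy chain SLA-8 (0.64) and the peptide transporter TAP1 (0.64) were the others. SLA-2 (0.13) and SLA-3 (0.23), heavy chains with strong signal, did not pass. SLA genes are close copies of one another, so probe sets may share signal between them.

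In RCS minus control 7 of 14 were higher and 0 lower (28.8% and 25.7% of all genes), with a median of 0.37. The members differed in part from those in RCO. PDIA3 (1.04 ± 0.19), CANX (0.43) and TAPBP (0.48), which fold or load class I molecules in the endoplasmic reticulum, passed here, together with PSMB8 (0.70), PSME2 (0.44), PSMB10 (0.41) and PSME1 (0.33). The count was 4 without control replicate 1 and 3 with quantile normalization. In RCS minus RCO 1 was higher, CANX (0.40 ± 0.09), and 1 lower, PSME1 (−0.37 ± 0.12), against 11.7% and 9.90% of all genes. That count of 2 was 5 without RCO replicate 2, 4 without RCS replicate 1, SWOP replicate 1 or control replicate 5, and 1 without RCO replicate 4 or RCS replicate 2 or 3. Without control replicate 5 and RCS replicate 1 together, 1 was higher and 7 lower in RCS minus RCO. With limma 0 of the 14 passed in SWOP minus control (3 higher at an unadjusted p below 0.05), where the median was 0.18.

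**Figure D5:**
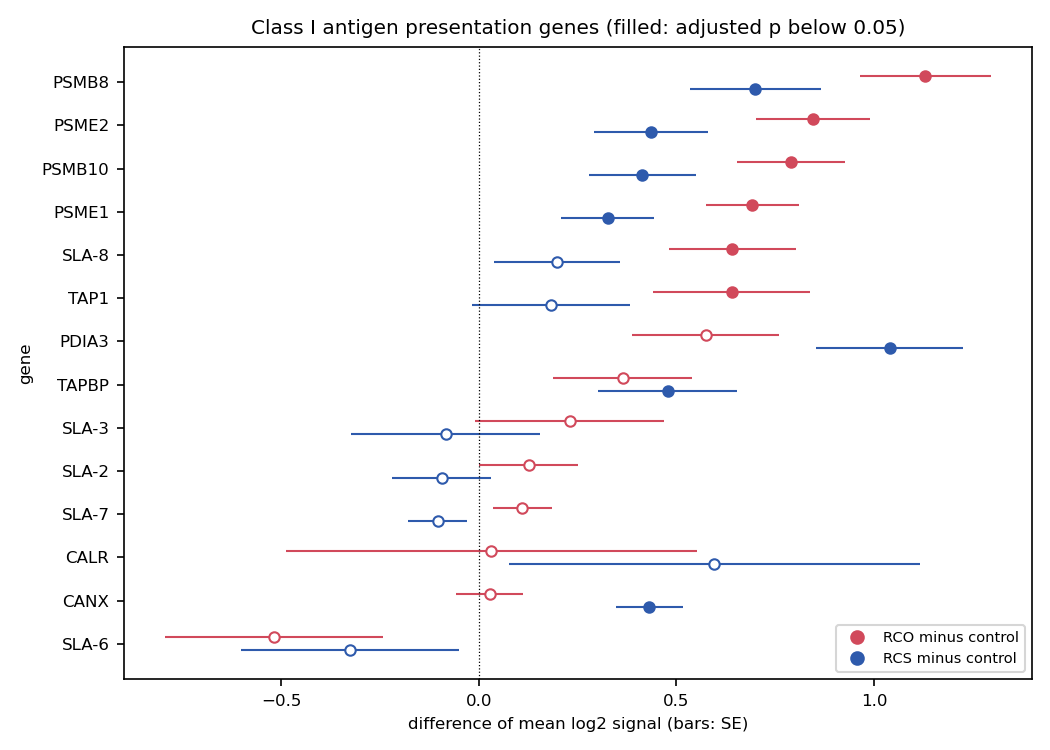
Differences of mean log2 signal (x axis, bars SE) from control for the 14 class I presentation genes (y axis), in RCO (red) and RCS (blue), filled where the adjusted p was below 0.05. Both differences use the same 5 control arrays. PSMB8, PSMB10, PSME1 and PSME2 pass in both protocols, SLA-8 and TAP1 in RCO, and PDIA3, CANX and TAPBP in RCS.

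Class II presentation, which IFN-gamma also induces, was in part higher in both chronic protocols. Of 11 genes, 5 were higher in RCO minus control (11.3% of all genes) and 7 in RCS minus control (28.8%), with 0 lower in either and medians of 0.69 and 0.87. The lysosomal thiol reductase IFI30 differed from control by 1.61 ± 0.36 in RCO and 2.85 ± 0.36 in RCS, and the protease CTSS by 1.12 ± 0.25 and 2.12 ± 0.25. Both were also higher in RCS than in RCO (IFI30 1.24 ± 0.36, CTSS 1.0 ± 0.25), the opposite of XAF1, IFI44L and UBD. The RCO count was 3 without RCO replicate 3, 2 without RCO replicates 2 and 3, and 0 in a fit of RCO and control alone. The RCS minus RCO count of 2 (11.7% of all genes higher) was 1 without RCO replicate 1 or 5 or RCS replicate 3, 4 without RCO replicates 2 and 3, and 0 with RCS and RCO alone.

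The closer partners of UBD and XAF1 were sparsely measured. Of 6 genes for FAT10 and ISG15 conjugation, NUB1, which binds FAT10, was lower in RCS than in control (−0.45 ± 0.10, limma adjusted p = 0.0017) and the segregase VCP was higher (0.34 ± 0.11), against 25.7% and 28.8% of all genes. With limma 0 of the 6 passed in RCO minus control (2 higher at an unadjusted p below 0.05). In RCS minus RCO 1 of the 6 was higher, VCP (0.43), and 1 lower, USP18, against 11.7% and 9.90% of all genes. Of 3 genes on XIAP and the caspases, 1 was higher in RCO and in RCS than in control, against 11.3% and 28.8% of all genes. This was the inhibitor family member BIRC5 (1.05 ± 0.23 and 1.62 ± 0.23), also a gene of dividing cells, and DIABLO and CYCS did not pass. TNF, an inducer of UBD, was lower in RCS than in control (−0.82 ± 0.14) and in RCS than in RCO (−0.54 ± 0.14), and did not pass in RCO minus control (−0.29 ± 0.14). The other 4 genes of the TNF list were TNFRSF1A (0.90) and TNFRSF1B (0.80), higher in RCS than in control, NFKBIA (−0.71), lower, and NFKB1 (−0.24), which did not pass. In RCS minus control 2 of these 5 genes were higher and 2 lower, against 28.8% and 25.7% of all genes. In RCS minus RCO 1 was higher, TNFRSF1A (0.58), and 1 lower, TNF, against 11.7% and 9.90% of all genes.

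Markers of immune cells and of other heart cells moved between the groups as well, and their part in the interferon genes was not tested. Signals were low for T cell markers (22.6th to 47.3rd percentile of signal), NK cell markers (20.2nd to 42.7th) and neutrophil markers (15.7th to 35.3rd). Of 8 T cell markers 4 were lower and 0 higher in RCS minus RCO (9.90% and 11.7% of all genes), CD3G (−0.68 ± 0.13, limma adjusted p = 0.0033), CD2 (−0.65), CD3E (−0.61) and CD3D (−0.42), and all 8 differences were below 0. That count was 2 without RCO replicate 2 or 5 or RCS replicate 1 or 2, 1 without RCS replicate 3, and 1 with RCS and RCO alone. The mean of the 8 T cell markers set against control was −0.31 to −0.12 in RCS, −0.01 to 0.59 in RCO and −0.22 to 0.35 in control. RCS replicate 1, the highest RCS array for the effectors, was the lowest for the T cell markers, and control replicate 5 was the highest control for both. Of the NK cell markers 2 were measured, and PRF1 was lower in RCS than in RCO (−0.38), against 9.90% of all genes. The 1 B cell marker measured, CD79B, was dim and lower in RCS than in control (−0.43), against 25.7% of all genes. Of 4 neutrophil markers 1 was lower in RCS than in control, near the share of all genes (25.7%). In RCO minus control 0 of the T cell, NK cell, B cell and neutrophil markers passed with limma, and 2 T cell markers were higher at an unadjusted p below 0.05.

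Macrophage markers did not move as one list between RCS and RCO. Of 8, 3 were higher in RCO minus control (11.3% of all genes), AIF1 (1.40), FCER1G (1.21) and TYROBP (1.05), and 4 in RCS minus control (28.8%), AIF1 (2.12), FCER1G (2.21), TYROBP (2.01) and CD163 (0.97), with 0 lower. AIF1 (0.72), FCER1G (1.0) and TYROBP (0.97) were higher in RCS than in RCO (11.7% of all genes), a count that was 1 or 0 without any one of RCO replicates 1, 4 and 5 or RCS replicates 1, 2, 3 and 4, and 0 with those groups alone. Of the 8 differences of RCS minus RCO 4 were above 0 and 4 below, with a median of −0.08, and MRC1 (−0.46, limma adjusted p = 0.052), C1QA (−0.57, 0.10), ITGAM (−0.35) and CD14 (−0.20) were the 4 below 0. The RCO minus control count was 5 without RCO replicate 5, and 1 without RCO replicates 2 and 3 or with those groups alone. Of 3 dendritic cell markers, CD83 and CD86 were higher than control in both RCO (1.39 and 0.69) and RCS (1.64 and 0.94), against 11.3% and 28.8% of all genes. The other marker, CCR7, did not pass in either (−0.10 and −0.18). The dendritic cell count of 2 in RCO minus control was 1 without RCO replicates 2 and 3 or with those groups alone. The mean of the macrophage markers set against control was 0.69 to 1.04 in RCS, 0.25 to 1.70 in RCO and −0.31 to 0.35 in control.

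Markers of other heart cells also differed. All 4 genes of the smooth muscle list were higher in RCS minus control (28.8% of all genes), with a median of 1.49. They were CNN1 (2.22), TAGLN (1.57), ACTA2 (1.42) and DES (0.79). DES is also a gene of heart muscle cells, so the list does not mark smooth muscle alone. In RCO minus control 1 of the 4 was higher (11.3% of all genes), the contractile gene CNN1 (1.92). The mean of the 4 set against control was 1.13 to 1.75 in RCS, 0.40 to 1.40 in RCO and −0.33 to 0.36 in control. Of 4 fibroblast markers 2 were higher and 0 lower in RCS minus control (28.8% and 25.7% of all genes), LUM (1.74 ± 0.26) and COL1A2 (1.27 ± 0.47). COL3A1 (−0.08) and DCN (−0.09) did not pass. The count of 2 was 1 with quantile normalization, and 1 without RCS replicate 2, 3 or 4 or control replicate 1, 2 or 5. Of 7 cardiomyocyte markers 4 were lower and 1 higher in RCS minus control (25.7% and 28.8% of all genes), the lower ones being ACTC1 (−0.60), MYL3 (−0.54), TNNI3 (−0.34) and TNNT2 (−0.29) and the higher one the natriuretic peptide gene NPPA (3.42 ± 0.52). In RCS minus RCO the smooth muscle gene ACTA2 (0.99), LUM (0.75) and NPPA (2.25) were higher and MYL3 (−0.34) lower, and of these 4 calls 1 was left with RCS and RCO alone, a higher cardiomyocyte marker. The LUM call was lost with quantile normalization and without any single SWOP array. It was also lost without RCO replicate 1, 4 or 5, RCS replicate 1, 2, 3 or 4, or control replicate 1 or 4. The ACTA2 call was lost without RCO replicate 1, 4 or 5 or RCS replicate 2, 3 or 4. Of 6 endothelial markers 1, VWF, was lower in RCO than in control (−0.95 ± 0.29, limma adjusted p = 0.041, against 4.26% of all genes). VWF was also lower in RCO than in SWOP (−1.03 ± 0.29, limma adjusted p = 0.031). The mean of the 6 set against control was −0.89 to 0.11 in RCO, −0.56 to 0.11 in RCS and −0.15 to 0.05 in control. Replicate 1 was the lowest array in both RCO and RCS. With limma 0 of the 6 endothelial and 0 of 2 erythrocyte markers passed in RCS minus control or RCS minus RCO. At an unadjusted p below 0.05, 1 endothelial marker was higher in each of these comparisons, PECAM1 in RCS minus control and VWF in RCS minus RCO. At that level 1 erythrocyte marker was lower in RCS minus RCO.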

How the data were processed

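The deposited table holds log2 signals of 24123 probe sets for each of the 20 arrays, made by the authors, and 124 control spots were left out. The submitters' processing notes name RMA and MAS5 with no version and no role. Per the labels' protocols, RNA was extracted with Trizol, primed with oligo(dT) and labelled with biotin. No source states the log base, and the range of values put it at 2. Raw images were not used here, so other background corrections, and slide or scan date as a batch, could not be tried, and a pseudocount does not apply to values already logged. The table gives no depth for an array.

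Gene names came from the platform's probe annotation, in which 10069 probe sets carried 1 symbol, 198 several and 13732 none. Of those with 1 symbol, 9961 matched RefSeq and 0 symbols changed. No sequence of the 4 genes is shown. Each gene on a list was read on whichever of its probe sets had the strongest mean signal. One limma model (lmFit, eBayes; version 3.58.1, R 4.3.3) estimated the 4 group means from all 20 arrays, with 16 residual degrees of freedom, and each of 6 differences was adjusted by Benjamini-Hochberg over 23999 probe sets. All adjusted p-values are limma's. They rest on the spread between animals within groups (5 per group, 1 array each), pooled over the 4 groups and moderated across probe sets. The fit was tested on simulated data. Correlations used deviations from group means. Figures were drawn with matplotlib 3.10.9 and tables made with numpy 2.4.6 and pandas 2.3.3 under Python 3.11.15.

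The 4 genes and the 21 lists (251 entries, 141 measured) were chosen with earlier results of these data known. Genes were named by a rule: all probe sets of the 4 genes, from each list up to 4 genes of smallest p that passed in RCO or RCS against control and up to 2 of highest signal that passed in neither, and the 5 genes most correlated with each member. Other genes named by symbol were chosen after their values were seen. Replicate numbers were not treated as pairs in the main fit. Same-numbered arrays of different groups did not deviate together throughout (r between −0.18 and 0.44 over 30 pairs, with all 6 pairs above 0 for number 3 alone). However, 11 of 20 arrays were nearest outside their group to an array of their own number, so a shared effect of number is not excluded. Alternatives were quantile normalization, centring on array medians, leaving out probe sets below the 30th percentile of signal, an intensity trend with robust spread, averaging a gene's probe sets, a fit of only the 2 groups compared, a replicate block, and leaving out arrays, singly or RCO replicates 2 and 3 together. Leaving out control replicate 5 and RCS replicate 1 together was chosen after seeing the data.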

Additional observations from a re-analysis of the deposited data

Results flagged for a closer look

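Of 56 groups of 5 arrays (14 probe sets in 4 groups), 5 held 1 array whose gap to the next exceeded Dixon's 95% critical value as a share of the group's range, where chance gives about 1 in 20 groups. Control replicate 5 stood high on IFI44L-B (9.95, other controls 8.54 to 8.84), B2M-B (13.93, others 13.58 to 13.68) and B2M-E (12.53, others 11.82 to 11.99). RCS replicate 1 stood high on the dim IFI44L-C (4.85, others 4.09 to 4.29) and low on B2M-A (13.65, others 14.07 to 14.21). The same control animal had the highest control value for 16 of 23 other interferon effectors, and the same RCS animal the highest RCS value for 17 of 23.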

How the results depend on the processing

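Of 2370 alternative values for the differences of the 14 probe sets, 2360 moved by less than the SD between arrays. The other 10 concerned B2M. With the mean of all 9 probe sets, the B2M difference that was read on B2M-A was 0.052 for SWOP minus control, 0.16 for RCO minus control, 0.00089 for RCS minus control and −0.051 for RCS minus SWOP. Without RCO replicates 2 and 3, B2M-G differed by 0.14 for RCO minus control, −0.00067 for RCO minus SWOP and −0.51 for RCS minus RCO, and B2M-H by 0.046, −0.044 and 0.72. Causes were not tested.

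Counts of calls depended more on the fit. With only the 2 groups compared, 4091 probe sets were called in SWOP minus control (1716 in the fit of all groups), 564 in RCO minus control (2571), 863 in RCO minus SWOP (2414) and 931 in RCS minus RCO (4572), and effectors numbered 1, 0 and 1 of 23 in SWOP minus control, RCO minus control and RCS minus RCO. Quantile normalization gave 957 probe sets in SWOP minus control. Without RCO replicates 2 and 3 there were 2748 in SWOP minus control, 1135 in RCO minus control and 9052 in RCS minus RCO, and 0 effectors in RCO minus SWOP. Without control replicate 5 and RCS replicate 1 there were 878 probe sets in SWOP minus control, and 1, 6, 5 and 13 effectors in SWOP minus control, RCO minus control, RCO minus SWOP and RCS minus RCO. Effectors in RCO minus SWOP numbered 0 with an intensity trend and 2 with the mean of all probe sets, and those in RCS minus control 3 without dim probe sets. With a replicate block, effectors called in RCS minus SWOP numbered 3 (5 without it) and in RCS minus RCO 8. The block gave 916 genes higher and 810 lower in RCS minus RCO, against 793 and 670 without it. Of 20 arrays, 11 were nearest outside their group to an array of their own number, more than even matching over the replicate numbers would give. What a replicate number stands for is not known here, so a shared effect of number is not settled.

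With single arrays left out, probe sets called ranged from 480 to 2428 in SWOP minus control, 1323 to 4251 in RCO minus control, 1006 to 2988 in RCO minus SWOP and 2053 to 7448 in RCS minus RCO. Effectors called ranged over 0 to 1 in SWOP minus control, 1 to 6 in RCO minus control, 3 to 6 in RCS minus control, 0 to 6 in RCO minus SWOP, 1 to 5 in RCS minus SWOP and 4 to 12 in RCS minus RCO. Dim genes such as IFNB1, IFNG and IFI44L-C lie where array signal limits what can be read.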
